A study of Mus musculus with 8 samples.

Results

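The globin genes of the mouse were examined in fetal liver myeloid progenitors infected with a Trim27 virus or a GFP control virus. The set was defined by gene symbol, as the adult alpha-like genes Hba-a1 and Hba-a2, the embryonic alpha-like gene Hba-x, the adult beta-like genes Hbb-b1 and Hbb-b2, and the embryonic beta-like genes Hbb-bh1 and Hbb-y. Of these 7 symbols, 5 matched a row among the 33435 named genes of the count table, and 4 of the 5 passed the filter on low counts. The adult beta-like rows of the table were Hbb-bs and Hbb-bt, the names of the adult pair in the haplotype that C57BL/6J mice carry, and they are described here in the place of the Hbb-b1 and Hbb-b2 symbols. The theta-like gene Hbq1b was also described.

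All libraries came from C57BL/6J fetuses at E14.5. Fetal liver stem and progenitor cells were infected and myeloid progenitors were then sorted from them, with 4 libraries of cells given the Trim27 virus and 4 given the GFP control virus, which the design text calls an empty vector. Trim27 encodes a tripartite motif ubiquitin ligase. The labels do not describe the vector or its promoter, do not say whether embryos were pooled, and do not say whether the sort selected infected cells or whether replicates were separate cultures or animals. The p-values therefore measure only how far these libraries spread, and that spread may be technical.

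Hemoglobin is built from alpha-like and beta-like globin chains, each of which holds a heme group. In the mouse the alpha-like genes lie in 1 cluster on chromosome 11 and the beta-like genes in another on chromosome 7. Primitive red cells of the yolk sac use the embryonic genes, and definitive red cells of the fetal liver use the adult genes. Erythroid factors such as GATA1 and KLF1 act on the promoters and on distant enhancers of both clusters, and BCL11A and SOX6 are known for silencing embryonic beta-like genes in definitive cells. Globin RNA in a population sorted as myeloid progenitors can come from cells of the erythroid branch in the sort, from low transcription in progenitors, or from free RNA.

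The bases just before the start sites of 5 globin genes are shown because these genes moved to different extents and because the factors described further on are known to use the elements in them. Each line holds the 120 bases before the start site, 5′ to 3′ on the strand of the gene, from RefSeq on build GRCm38.p6, which is not the build named in the submitters' processing notes. Promoters in that table matched 4 of the 5 globin symbols with a row, together with Hbb-bs and Hbb-bt. Capitals mark exact matches on either strand to CACCC (the core of KLF1 binding elements), the CCAAT box, the GATA factor core GATAA and the TATA box letters TATAA. The stretches are chr7:103827929-103828048 (minus strand) for Hbb-bs, chr7:103813924-103814043 (minus strand) for Hbb-bt, chr7:103853208-103853327 (minus strand) for Hbb-y, chr11:32283552-32283671 (plus strand) for Hba-a1 and chr11:32276480-32276599 (plus strand) for Hba-x.
Hbb-bs: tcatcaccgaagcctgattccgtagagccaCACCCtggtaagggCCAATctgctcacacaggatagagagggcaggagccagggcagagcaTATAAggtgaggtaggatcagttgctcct
Hbb-bt: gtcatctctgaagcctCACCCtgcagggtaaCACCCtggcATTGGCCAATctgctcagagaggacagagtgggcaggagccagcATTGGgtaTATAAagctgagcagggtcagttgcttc
Hbb-y: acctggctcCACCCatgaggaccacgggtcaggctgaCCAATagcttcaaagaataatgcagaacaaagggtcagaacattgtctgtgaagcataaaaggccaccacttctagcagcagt
Hba-a1: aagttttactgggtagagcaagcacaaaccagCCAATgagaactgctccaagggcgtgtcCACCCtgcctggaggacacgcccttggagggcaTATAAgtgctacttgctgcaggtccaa
Hba-x: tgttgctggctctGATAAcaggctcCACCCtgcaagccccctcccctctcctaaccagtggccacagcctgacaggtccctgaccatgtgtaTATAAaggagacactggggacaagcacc

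All 5 stretches held CACCC, which 31.7% of 32851 promoter stretches of this length held. CCAAT (21.3% of stretches) was in Hbb-bs, Hbb-bt, Hbb-y and Hba-a1, and Hbb-bt held CACCC at a further position. The letters GATAA (10.5% of stretches) was in Hba-x among the 5, and TATAA (11.8%) was in all but Hbb-y. The CCAAT letters of Hbb-bt on the plus strand abut a match on the opposite strand, written ATTGG. The stretches of Hba-a1 and Hba-a2 were identical over 117 aligned bases, and those of Hbb-bs and Hbb-bt were identical at 88 of 119 aligned bases (73.95%). These are matches of letters and not measured binding.

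Total counts were 9257889 to 16366571 per library. Genes with any count numbered 11131 to 11850 in GFP libraries and 12962 to 13283 in Trim27 libraries. Trim27 itself was at 171 to 191 CPM (counts scaled to a common library total by the TMM method) in controls, against 267 to 310 CPM with the Trim27 virus. Its log2 fold change was 0.70, with an adjusted p = 7.4e-13. The granulocyte enzyme gene Mpo averaged 551 ± 28.2 CPM in controls and 487 ± 32.4 CPM with the Trim27 virus (SD, n = 4 each), so the myeloid label has a defining marker in both groups. Most genes moved. In the quasi-likelihood test of edgeR, with p-values adjusted by Benjamini-Hochberg over 11040 genes, 85.5% passed the threshold of 0.05, with 47.5% higher in the Trim27 group and 38% lower. Rises were 55.6% of the calls, 66.9% with library size as the only scaling, 47.5% with the trend on transcript length removed, and 64.6% after removal of the trend of abundant genes on length. The median tested gene had a log2 fold change of 0.14, and of 0.44 with library size alone.

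Adult beta-like genes stood above adult alpha-like genes, and both above the embryonic genes, in level per kilobase of transcript. How reads that match both genes of a pair were counted is not given, and its part in this order was not tested. Of the windows of 50 bases, 67.54% in Hba-a1 and 86.93% in Hba-a2 occur in the other gene of the pair. In Hbb-bs the share was 65.8% and in Hbb-bt 58.26%. In the GFP group Hbb-bs stood highest at 4838 ± 88.5 CPM per kilobase, followed by Hbb-bt at 1074 ± 43.96, Hba-a1 at 525.0 ± 13.9 and Hba-a2 at 122 ± 13.1. Hbb-bh1 (32.8 ± 1.10), Hbq1b (29.2 ± 3.71) and Hbb-y (21.7 ± 3.92) came next (SD, n = 4 each), and the libraries of Hbq1b overlapped with those of both its neighbours in this order. In the Trim27 group the first 4 kept this order, at 2991 ± 152, 805 ± 59.1, 334 ± 39.9 and 106 ± 12.4 CPM per kilobase. Below them Hbb-y (10.96 ± 0.442) and Hbq1b (9.40 ± 1.06) overlapped in level between libraries, and Hbb-bh1 lay lowest of these at 2.36 ± 0.890. Hba-x was at 0 in every GFP library and at 0.436 ± 0.302 CPM per kilobase in the Trim27 group.

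**Figure D1:**
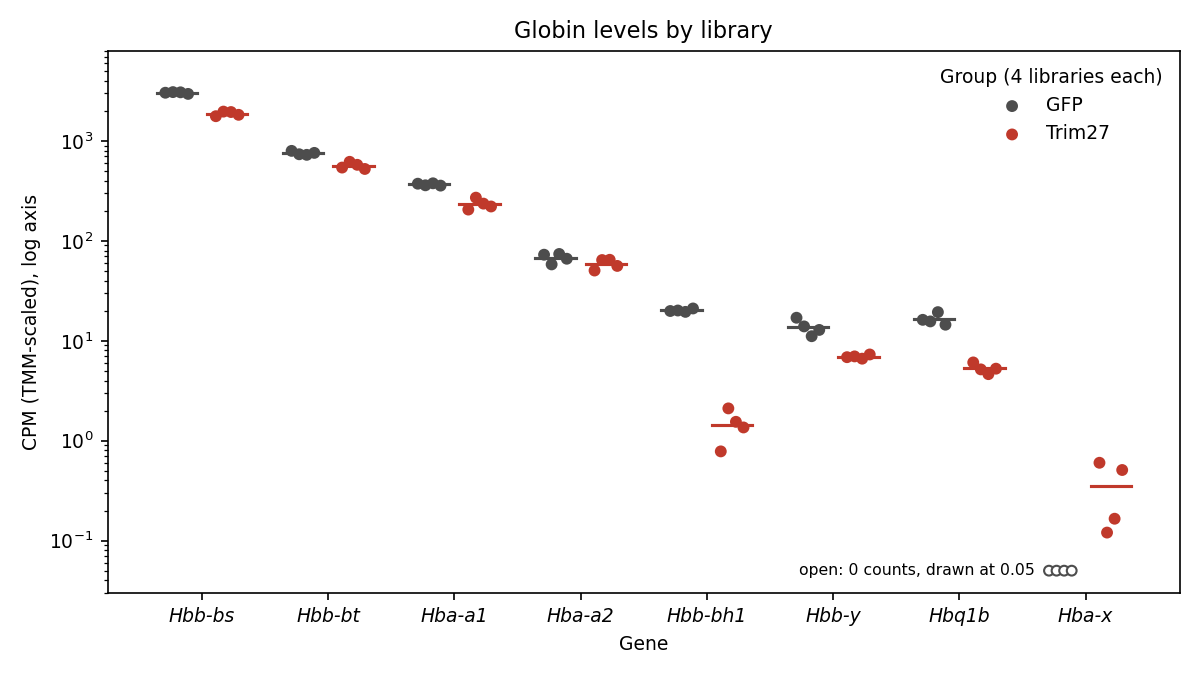
Level of each globin gene in every library, in CPM on a log axis, with GFP libraries in grey and Trim27 libraries in red, a bar at each group mean, and open points for libraries with 0 counts. The groups do not overlap for any gene shown except Hba-a2, and they do not overlap for 80.7% of all tested genes. The gap is widest for Hbb-bh1 among genes shown with counts in both groups, and Hba-x has counts in the Trim27 libraries alone.

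The embryonic beta-like genes were lower with the Trim27 virus, and Hbb-bh1 by far the more of the pair. Hbb-bh1 encodes an embryonic beta-like chain used mainly by early primitive red cells. Its level was 19.9, 20.1, 19.5 and 21.1 CPM in GFP replicates 1 to 4, against 0.782, 2.11, 1.55 and 1.36 CPM in Trim27 replicates 1 to 4. Every Trim27 library lay far below every GFP library. The counts behind these values were 163 to 205 per control library and 13 to 35 per Trim27 library. The log2 fold change was -3.78 (SE 0.20, adjusted p = 1.2e-16), and 2.5% of all tested genes had a log2 fold change as low or lower.

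Hbb-y encodes epsilon-y, the other embryonic beta-like chain. It was at 17.0, 13.9, 11.1 and 12.8 CPM in GFP replicates 1 to 4, against 6.85, 6.98, 6.62 and 7.29 CPM in Trim27 replicates 1 to 4. The groups did not overlap, and the GFP libraries spread more than the Trim27 libraries. Its log2 fold change was -0.99 (SE 0.16, adjusted p = 1.2e-06). The call was lost after removal of the length trend of abundant genes (-0.16, adjusted p = 0.342), a setting in which Hbb-bh1 was at -2.94 (adjusted p = 7.8e-13).

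Ratios within a library do not depend on how libraries are scaled. Hbb-bh1 and Hbb-y together made up 0.952%, 0.883%, 0.799% and 0.903% of the beta-like globin counts in GFP replicates 1 to 4, the rest being Hbb-bs and Hbb-bt. In Trim27 replicates 1 to 4 this embryonic share was 0.329%, 0.350%, 0.322% and 0.366%. The group means were 0.884% ± 0.0637 and 0.342% ± 0.0201 (SD, n = 4 each), with no overlap, and a 2-sided exact permutation test over libraries gave p = 0.0286, the smallest that 4 against 4 allows. Adjusted over the 6 measures tested in this way, it was p = 0.0343 (exact permutation test).

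The balance between the 2 embryonic genes changed as well. There were 1.17, 1.44, 1.75 and 1.64 Hbb-bh1 counts per Hbb-y count in GFP replicates 1 to 4, against 0.114, 0.302, 0.233 and 0.186 in Trim27 replicates 1 to 4. Hbb-bh1 was thus the more counted of the pair in all 4 GFP libraries and the less counted in all 4 Trim27 libraries. The means were 1.501 ± 0.256 and 0.209 ± 0.0790 (SD, n = 4 each), and the difference of the log2 ratio was -2.92 (exact permutation p = 0.0286, adjusted p = 0.0343). This ratio was chosen after the counts were seen. No window of 50 bases was shared between the annotated transcripts of Hbb-bh1 and Hbb-y, or between either and Hbb-bs.

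**Figure D2:**
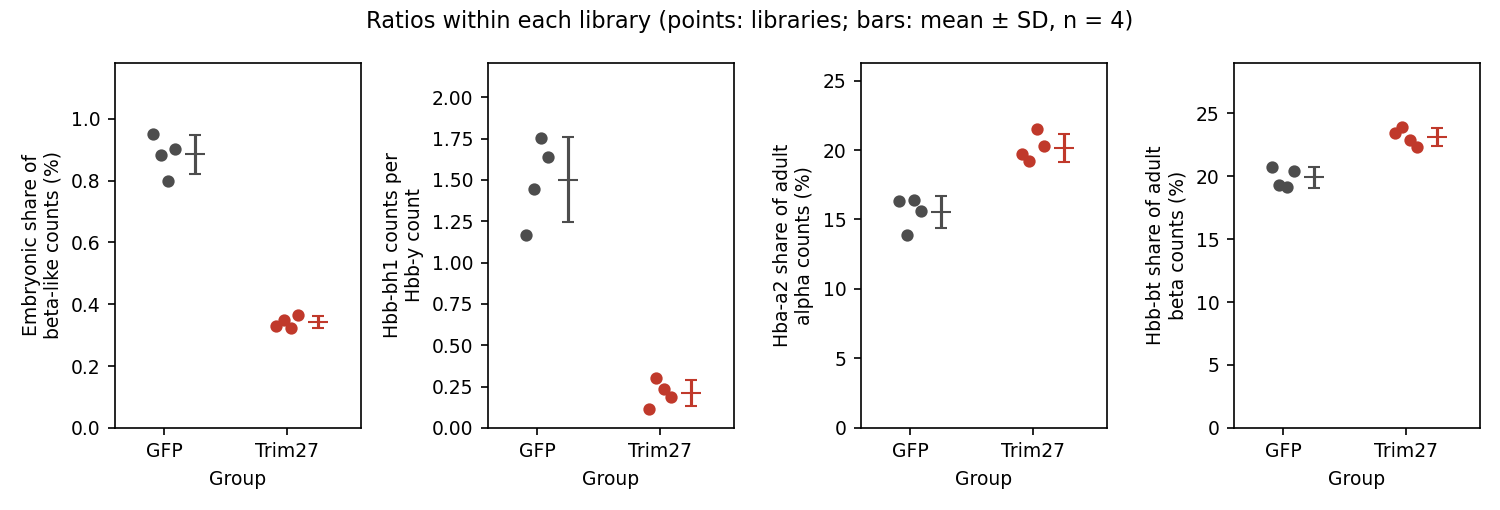
Ratios of globin counts within each library on linear axes from 0, with points for libraries and bars for mean ± SD of the 4 libraries of a group. The embryonic share of beta-like counts and the ratio of Hbb-bh1 to Hbb-y are lower in all 4 Trim27 libraries, and the shares of Hba-a2 and Hbb-bt within their adult pairs are higher.

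Hba-x, which encodes the embryonic zeta chain, was listed at 0 in all 4 GFP libraries and at 10, 2, 3 and 6 counts in Trim27 replicates 1 to 4. Against a floor of 3 counts over the GFP group it was at least 4.02-fold higher in the Trim27 group, a bound for counting error alone. It thus lay on the opposite side from Hbb-bh1 and Hbb-y, at a level of 0.332 CPM over the Trim27 group. Every GFP library had fewer genes with any count than every Trim27 library, and the part of this in the Hba-x counts was not tested. Hba-x did not pass the filter on low counts. With no filter its adjusted p was 0.00335. Summed over the 3 embryonic genes, the level was 33.8 ± 2.57 CPM in controls and 8.73 ± 0.520 CPM with the Trim27 virus (log2 fold change -1.96, SE 0.11, adjusted p = 8.2e-16).

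The adult beta-like genes carried most globin counts. Hbb-bs was at 3040, 3084, 3069 and 2959 CPM in GFP replicates 1 to 4, against 1770, 1968, 1948 and 1827 CPM in Trim27 replicates 1 to 4. All Trim27 libraries were lower than all GFP libraries. The log2 fold change was -0.69 (SE 0.04, adjusted p = 5.5e-15). Its neighbour Hbb-bt was at 727 to 796 CPM in controls and 525 to 619 CPM with the Trim27 virus, also without overlap, with a log2 fold change of -0.42 (SE 0.05, adjusted p = 1.1e-08). The sum of both genes was 3793 ± 51.7 CPM in controls and 2444 ± 133 CPM with the Trim27 virus (-0.63, SE 0.04).

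Among the adult alpha-like genes Hba-a1 moved further than Hba-a2. Hba-a1 was at 374, 360, 377 and 357 CPM in GFP replicates 1 to 4, against 206, 271, 236 and 221 CPM in Trim27 replicates 1 to 4. The groups were apart, and Trim27 replicate 2 was the highest of its group. The log2 fold change was -0.65 (SE 0.06, adjusted p = 2.1e-10). Hba-a2 was at 72.7, 58.2, 74.0 and 66.3 CPM in GFP replicates 1 to 4, against 50.5, 64.3, 64.7 and 56.1 CPM in Trim27 replicates 1 to 4. These ranges overlapped, since GFP replicate 2 was below Trim27 replicates 2 and 3. Its log2 fold change of -0.20 (SE 0.08, adjusted p = 0.0301) passed the threshold by little. The call was lost without GFP replicate 1 (-0.17, adjusted p = 0.0795), without GFP replicate 3 (-0.16, adjusted p = 0.111) and with several other scalings, and library size alone gave 0.10 (adjusted p = 0.244).

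The calls on the adult genes rest on how transcript length is treated. Of the 439 tested genes with an annotated transcript of 500 to 800 bases, the range that holds most globins, 64.2% passed as lower and 13.2% as higher, with a median log2 fold change of -0.61. Of the 132 among them that averaged 6 log2 CPM or more, 97.7% passed as lower, with a median of -0.83. Without ribosomal protein genes 113 of these were left, and the median was -0.79. Hbb-bs (-0.69), Hba-a1 (-0.65) and Hbb-bt (-0.42) therefore fell by less than the median abundant gene of like length. Hbb-bh1 (-3.78) averaged 3.24 log2 CPM, below the cut of 6. Its fall was larger than the median of all 439 tested genes of like length (-0.61). After removal of each library's trend on length, Hbb-bs was at -0.13 (adjusted p = 0.00659) and Hba-a1 at -0.13 (adjusted p = 0.0391), while Hba-a2 rose by 0.41 (adjusted p = 2.5e-05) and Hbb-bt was at 0.10 (adjusted p = 0.0681). With the trend of abundant genes removed, a setting chosen after seeing the data, the adult genes turned to 0.14 for Hbb-bs, 0.35 for Hbb-bt, 0.12 for Hba-a1 (adjusted p = 0.0523) and 0.70 for Hba-a2. The fall of Hbb-bh1 kept its call in both settings, at -3.21 and -2.94.

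**Figure D3:**
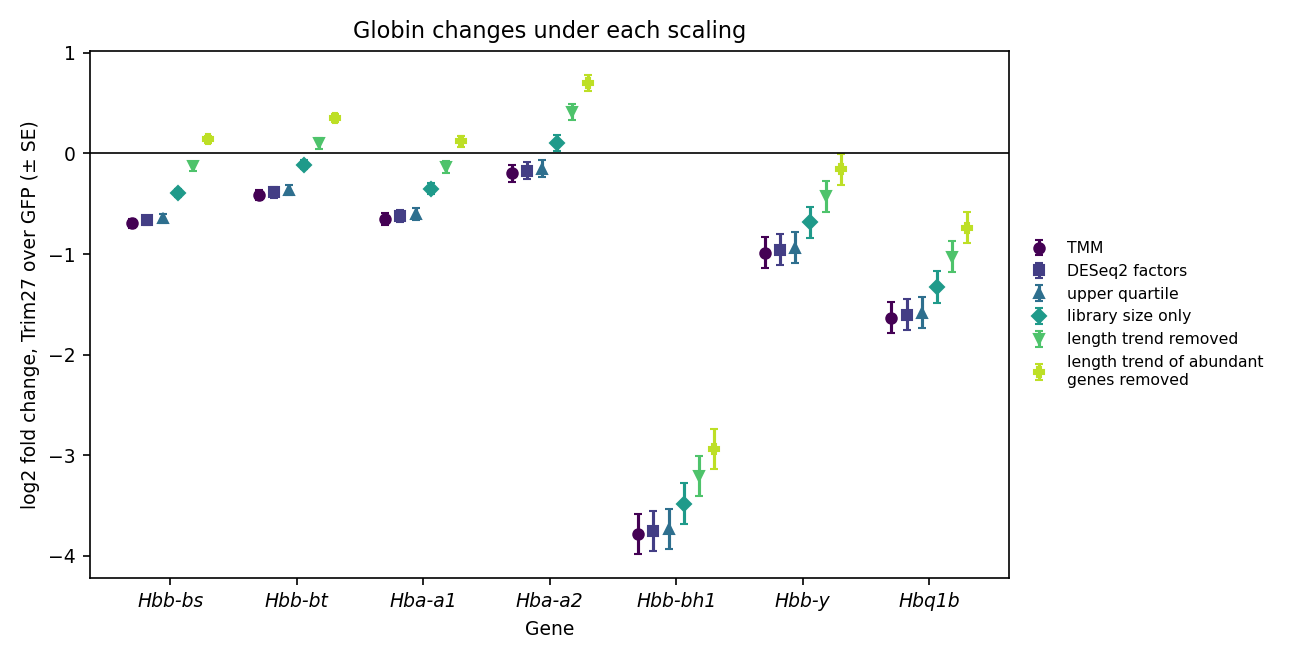
Fitted log2 fold change of Trim27 over GFP for 7 globin genes, with standard errors, under 4 ways of scaling libraries and 2 corrections for transcript length. The adult genes move from below 0 to above 0 across the settings, while Hbb-bh1 stays between -3.78 and -2.94 and Hbq1b between -1.63 and -0.74.

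Of the 4 globins named by the rule that could be tested, 4 fell, and their median log2 fold change was -0.82. For all tested genes the share that fell was 38% and the median 0.14. For tested genes of 500 to 800 bases they were 64.2% and -0.61. The fifth, Hba-x, was the one that the filter left out. The groups did not overlap for 3 of the 4, as for 80.7% of all tested genes. The count was 3 falls under DESeq2 size factors, upper-quartile factors, library size alone, DESeq2 and limma-voom, in each of which Hba-a2 was the gene lost. With the length trend removed it was 3 falls and 1 rise, and with that of abundant genes removed 1 fall and 1 rise.

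The adult pairs also changed within themselves. Hba-a2 made up 16.3%, 13.9%, 16.4% and 15.6% of the adult alpha-like counts in GFP replicates 1 to 4, against 19.7%, 19.2%, 21.5% and 20.3% in Trim27 replicates 1 to 4. Hbb-bt made up 19.1% to 20.8% of the adult beta-like counts in controls and 22.3% to 23.9% with the Trim27 virus. Both shares were higher in all 4 Trim27 libraries, by 4.604 and 3.23 percentage points (exact permutation p = 0.0286 each, adjusted p = 0.0343 each). Both measures were chosen after the counts were seen. These pairs are close paralogs, so the split of their reads is uncertain. Of the windows of 50 bases in the Hba-a2 transcript 86.93% occur in Hba-a1, and 58.26% of those in Hbb-bt occur in Hbb-bs. How reads with several matches were counted is not given in the sources used here, and its part in the split was not tested.

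Alpha-like counts were low beside beta-like counts in every library. The counting of reads that match both genes of a pair is not given, and its part in this balance was not tested. There were 8.48 to 9.22 beta-like counts per alpha-like count in controls and 7.74 to 9.03 with the Trim27 virus. These ranges overlapped. The log2 ratio of alpha-like to beta-like counts was -3.14 ± 0.0508 and -3.07 ± 0.0914 (SD, n = 4 each), a difference of 0.07 that the exact permutation test did not call (p = 0.257, adjusted p = 0.257). The adult and embryonic globins together, without Hbq1b, took 0.378% to 0.387% of the library counts in controls and 0.290% to 0.320% with the Trim27 virus (exact permutation p = 0.0286, adjusted p = 0.0343). This share is not corrected for transcript length. With the length trend removed the adult alpha-like sum was at -0.0069 and the adult beta-like sum at -0.09. With that of abundant genes removed they were at 0.26 and 0.17. In bulk libraries fewer cells of the erythroid branch and less globin RNA per cell cannot be told apart.

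Hbq1b, a theta-like gene of the alpha cluster, fell by more than Hbb-y and by less than Hbb-bh1, a difference that was not tested. It was at 16.2, 15.6, 19.4 and 14.49 CPM in GFP replicates 1 to 4, against 6.07, 5.17, 4.64 and 5.26 CPM in Trim27 replicates 1 to 4. The groups were apart. The log2 fold change was -1.63 (SE 0.16, adjusted p = 7.3e-11), and it was -1.03 and -0.74 with the respective length trends removed. Of the other family members with a row, Hbq1a and Hbb-bh2 had 1 count each, both in the GFP group, and myoglobin (Mb), neuroglobin (Ngb) and cytoglobin (Cygb) had 0 counts in every library.

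Regulators of globin genes were called in both directions. Of 22 tested members of a list of 24, 7 rose, 10 fell and 5 did not pass (median -0.18, also with Sox6 at its bound), where 47.5% of all tested genes rose and 38% fell. With library size alone 9 rose and 7 fell, so the balance of the list depends on scaling. KLF1 activates adult beta globin through the CACCC element, and Klf1 fell from 911 ± 20.9 to 502 ± 40.5 CPM (-0.86, SE 0.05). Gata1, which encodes the main erythroid GATA factor, rose (0.91, SE 0.05). Ldb1, which encodes the protein that joins the enhancer complex to globin promoters, fell from 113 ± 7.75 to 41.7 ± 2.18 CPM (-1.44, SE 0.07). Mafk, which encodes a small Maf partner of NFE2 at the beta-globin enhancers, rose from 1.23 ± 0.603 to 48.1 ± 3.77 CPM (5.30, SE 0.17). Ldb1 and Mafk overlap Pprc1 and Tmem184a on the opposite strand.

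The known silencers of embryonic or fetal globin moved in both directions. Sox6 had 0 counts in the 4 GFP libraries and 439 over the Trim27 libraries, which makes it at least 84.0-fold higher (adjusted p = 2.2e-13). It lies across the antisense gene Sox6os, which itself had 26 counts in controls and 113 with the Trim27 virus, so without a stated strand setting part of these reads cannot be assigned. Zbtb7a, which encodes the repressor LRF, fell from 16.7 ± 2.27 to 8.03 ± 0.686 CPM (-1.05, SE 0.14). Bcl11a was at 38.7 ± 2.998 and 30.9 ± 2.39 CPM (-0.32, SE 0.09, adjusted p = 0.00148), and library size alone ended this call (-0.02, adjusted p = 0.849). Myb, whose product is linked to higher embryonic and fetal globin when it is reduced, fell from 69.7 ± 8.69 to 49.3 ± 4.55 CPM (-0.50, SE 0.08). Lin28a had 0 counts in every library. Its paralog Lin28b, looked at after its values were seen, rose from 1.26 ± 0.759 to 19.9 ± 2.14 CPM (3.94, SE 0.23, adjusted p = 4.6e-15).

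Genes that supply heme to globin also went both ways. Of 12 members tested 3 rose, 6 fell and 3 did not pass, beside 47.5% of all tested genes that rose and 38% that fell. The list's median was -0.07, against 0.14 for all tested genes, with 7 rises and 4 falls under library size alone and 2 rises and 9 falls with the length trend removed. The falls with the smallest p were in middle steps of the pathway. Alad, porphobilinogen synthase, fell from 895 ± 13.5 to 415 ± 29.5 CPM (-1.11), Uros, uroporphyrinogen III synthase, from 38.1 ± 2.90 to 10.1 ± 1.125 CPM (-1.90), and Urod from 183 ± 7.43 to 82.5 ± 10.6 CPM (-1.15). Slc25a37, the mitochondrial iron importer mitoferrin 1, rose from 14.6 ± 1.72 to 38.5 ± 1.99 CPM (1.40). Uros overlaps Bccip on the opposite strand. Alas2, the erythroid enzyme of the first step, was looked at after its values were seen. It rose from 8.91 ± 2.91 to 37.1 ± 3.48 CPM (2.06, adjusted p = 5.1e-12), with an overlapping gene, Apex2, on the opposite strand. Of the partners in globin folding and translation, Hspa9, a mitochondrial chaperone, rose (0.73) and Eif2ak1, the heme-regulated kinase that holds back globin translation, fell (-0.53). Eif2ak1 overlaps Aimp2 and Ankrd61.

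Among 23 red cell membrane and surface genes there were 11 rises, 11 falls and 1 without a call (median 0.01, also with Trim10 at its bound). The share that rose was near the 47.5% of all tested genes, and 38% of all tested genes fell. With library size alone 12 rose and 9 fell, and with the length trend removed 6 of 21 rose and 11 fell. Tspo2, an erythroid membrane protein (-1.55), Cldn13, a claudin of erythroid precursors (-1.15), and Epb4.2, protein 4.2 of the membrane skeleton (-4.50), fell.

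**Figure D4:**
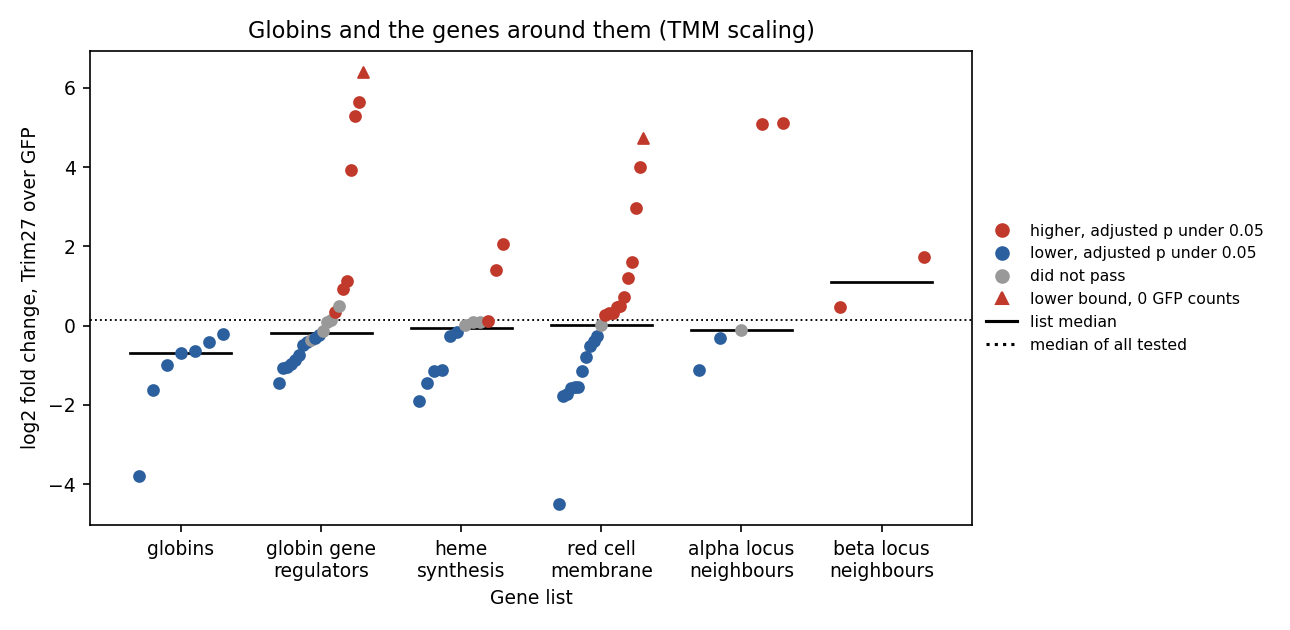
Fitted log2 fold change of each tested gene in 6 lists under TMM scaling, coloured by call, with the list median as a bar and the median of all tested genes (0.14) as a dotted line. Triangles are lower bounds for genes with 0 GFP counts. All 7 tested globins, Hbb-bs, Hbb-bt and Hbq1b included, lie below 0 at this scaling, while the other lists hold points on both sides or few points. Of all tested genes 38% passed as lower, and of those with a transcript of 500 to 800 bases, the range of most globins, 64.2%.

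Summed marker levels of other cell types differed between the groups for some lists and overlapped for monocyte and macrophage markers. The summed level of 6 megakaryocyte markers was 1009 to 1101 CPM in controls and 784 to 819 CPM with the Trim27 virus. For 6 primary granule markers it was 1421 to 1532 and 980 to 1136 CPM, and for 8 B cell markers 64.7 to 153.9 and 39.3 to 53.8 CPM. Among the megakaryocyte markers 2 rose and 4 fell, and among the granule markers 1 rose and 5 fell. Of 7 tested B cell markers 5 fell. Among all tested genes 47.5% rose and 38% fell. With library size alone 2 granule markers rose and 2 fell. For 7 monocyte and macrophage markers the summed level was 49.6 to 56.8 and 47.8 to 52.9 CPM, with C1qa and Cd14 at 0. Within that list 3 of 5 tested genes rose and 2 fell (median 1.70), so the sum holds changes in opposite directions. Over 4 tested genes that median was -1.21 with the length trend removed and -0.77 with that of abundant genes removed. Csf1r (-3.59) and Ly6c2 (-4.77) fell and Ctss (2.79) rose, genes singled out after their values were seen, and Emr1 had 0 counts in controls and 678 with the Trim27 virus. Of 9 hepatocyte markers 7, Alb among them, were at 0 in every library, and the sum was 1.195 to 1.70 and 14.3 to 16.4 CPM. The summed red cell membrane and surface genes were at 1576 to 1619 and 1542 to 1592 CPM. The part of these shifts in the globin values was not tested.

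The genes whose profiles over the 8 libraries lay closest to a globin were sought among the 5637 genes that averaged 4 log2 CPM or more, by the root mean square difference of centred log2 CPM. Closest to Hba-a1 were Slc52a2 (0.0418), Mif (0.0469), Yif1b (0.0497), Mecr (0.0498) and Apeh (0.0552). Closest to Hbb-bh1 were Gm24270 (0.308), Alkbh6 (0.364), Fhod1 (0.393), Gatsl3 (0.394) and Fkbp1b (0.417). The distances for Hbb-bh1 are larger, and its values in the Trim27 libraries rest on 13 to 35 counts.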

How the data were processed

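RNA was measured by sequencing of polyadenylated RNA in 8 libraries. The values are raw counts by gene symbol, in 1 table that the authors deposited. Build NCBIM37 and the tools HISAT2, featureCounts and bcl2fastq are named in the submitters' processing notes. Annotation, strand setting and multi-mapped reads: not given in the sources used here. That table held 1 line with no gene name and 0 counts, which was left out. Small counts were mostly even (64.7% to 72% of counts from 1 to 10), so bounds and intervals, which cover counting error only, may treat reads of 1 pair as separate.

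The fits used edgeR 4.0.16 under R 4.3.3. The filter of filterByExpr (minimum count 10, minimum total 15) kept 11040 genes. Scaling was by TMM, and the groups were compared by the robust quasi-likelihood test, 2-sided, with no covariate. Ratios within libraries were compared by exact permutation tests. Standard errors come from the fold change and its F statistic. Transcript lengths and shared windows come from GENCODE M21 transcripts, matched by symbol (446 tested genes had no length). Length trends were removed as lowess offsets per library (span 0.3).

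The alternatives were DESeq2 size factors, upper-quartile factors, library size alone, no filter, at least 10 CPM in 4 libraries, DESeq2 1.42.0, limma-voom (limma 3.58.1), a replicate block, length trends, halved counts and leaving out each library. The script was tested on simulated data. Globins and lists were chosen with earlier results of these data known. All globins were named; of each list, up to 4 genes with the smallest p were named, and Klf1, Gata1, Bcl11a, Zbtb7a, Sox6 and Myb whatever their p. One gene that this rule names is not reported here. The adult beta-like sum and shares were planned with Hbb-b1 and Hbb-b2 and computed with Hbb-bs and Hbb-bt. The sequence table for promoters is RefSeq's. The globin chaperone Ahsp was not analysed here.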

Additional observations from a re-analysis of the deposited data

How the results depend on the processing

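Hbb-bh1, the embryonic sum and Hbq1b kept direction and call in every alternative that could be fitted. With the length trend removed, the adult alpha-like sum lost its call (-0.0069, adjusted p = 0.918), and Hba-a2 (0.41) and Hbb-bt (0.10) turned. With that of abundant genes removed, the adult alpha-like sum (0.26), the adult beta-like sum (0.17), Hba-a1 (0.12), Hba-a2 (0.70), Hbb-bs (0.14) and Hbb-bt (0.35) turned, and 2 globin members passed. Library size alone turned Hba-a2 (0.10). The causes were not tested. As a percent of TMM-scaled library size the globin share differed by -0.152 points, against -0.0788 of raw counts.

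Replicate numbers shared by the groups did not pair the libraries, since deviations of same-numbered libraries correlated at -0.0345 to 0.0207 across genes, and libraries did not all correlate best with their own number. With a replicate block 9160 genes passed, against 9442. Within replicate numbers the smallest exact permutation p is 0.125, so no ratio could pass with this block: the differences were -0.0788 for the globin share, -0.542 for the embryonic share, 4.604 for Hba-a2, 3.23 for Hbb-bt and -2.92 for the log2 ratio of Hbb-bh1 to Hbb-y. Leaving out each library gave 3 to 4 globin members past the threshold and -2.02 to -1.92 for the embryonic sum. At 13 to 35 counts per Trim27 library, depth limits Hbb-bh1, and at 21 counts in all it limits Hba-x.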

Other observations

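Of 5 tested neighbours of the alpha cluster 2 rose, 2 fell and 1 did not pass. Among all tested genes 47.5% rose and 38% fell. Nprl3, whose introns hold the alpha-globin enhancers, rose from 0.853 ± 0.223 to 30.1 ± 3.89 CPM (log2 fold change 5.12, SE 0.20), although it overlaps Mpg on the opposite strand, which did not pass (-0.12, adjusted p = 0.209). Snrnp25, a gene of the minor spliceosome, fell from 211 ± 6.98 to 96.7 ± 8.69 CPM (-1.13). Rhbdf1 was higher in the Trim27 group by a ratio of 40.5 (95% counting interval 11 to 337) from 2 GFP counts, and Sh3pxd2b fell (-0.30), a call that library size alone ended (-0.0016, adjusted p = 0.986).

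Of the genes listed around the beta cluster, the 5 olfactory receptor genes with a row had 0 counts in every library. Rrm1, a subunit of ribonucleotide reductase, rose from 236 ± 9.13 to 327 ± 10.1 CPM (0.47), but was at -0.07 with the length trend removed (adjusted p = 0.167). Stim1, a calcium sensor of the endoplasmic reticulum, rose from 8.12 ± 1.65 to 26.9 ± 0.538 CPM (1.73). The alpha globin pseudogene Hba-ps4 had 4 counts, all in the Trim27 group.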
